A study of Mus musculus with 7 samples.

Results

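Matrix metalloproteinases (MMPs) and tissue inhibitors of metalloproteinases (TIMPs) were examined in gentamicin-damaged mouse utricles with and without overexpression of Fos. The 10 genes were listed by name, 7 proteases (Mmp2, Mmp3, Mmp9, Mmp10, Mmp12, Mmp13 and Mmp14) and 3 inhibitors (Timp1, Timp2 and Timp3). They were chosen by name with their fold changes in this same contrast known, and several as known AP-1 targets with lower values, so their values are a description and carry no p-value. All 10 were among the 17155 genes that passed the filter on low counts, out of 32285 genes in the count files. The utricle is a vestibular organ of the inner ear. Wild-type (WT) mice at postnatal day 2, C57BL/6J by the study's methods, gave utricle explants that were cultured whole in serum-free medium, and each library was made from 12 utricles. Both groups were damaged with 2 mM gentamicin, an aminoglycoside that kills hair cells, for 24 h and collected 5 days after injury. The Gent+Fos OE group (4 libraries) also received AAV-PHP.eB Fos for 48 h, an adeno-associated virus in which the CMV promoter drives mouse Fos. The Gent group (3 libraries) is labelled with gentamicin alone, but its count files carry letters in their names that can also stand for shRNA. Whether it received no virus, a control virus or a virus with a Fos shRNA is not settled, so each fold change, that of Fos included, rests on the labels. No undamaged group was analysed here, so the values compare damaged utricles only. Replicates are thus pools, and their spread is that from pool to pool.

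MMPs are zinc-dependent endopeptidases that are secreted, or anchored at the cell surface, as inactive proenzymes and cleave collagens, laminins, proteoglycans and many non-matrix proteins once activated. TIMPs bind the active site of MMPs and block them, so the balance of the 2 families sets how much matrix is cleaved. Several MMP genes are textbook targets of AP-1, the dimer of Fos and Jun proteins, which binds the 7-base element TGACTCA or, read on the other strand, TGAGTCA. In tissue, collagenase and stromelysin genes are made mainly by stromal and epithelial cells under inflammatory cytokines, and Mmp12 mainly by macrophages.

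Libraries held 27879889 to 34335214 counts, and levels are given as CPM, read counts scaled to the size of the library, after TMM normalization. Fos was at 151, 150.6, 167 and 149 CPM in the 4 libraries with overexpression and at 39.5, 40.6 and 34.6 CPM in the 3 Gent libraries. Its log2 fold change was 2.01 (SE 0.13), which passed edgeR's quasi-likelihood test (Benjamini-Hochberg adjusted p = 0.000142) and a two-sided exact permutation test (p = 0.0286, the smallest that 4 against 3 libraries allow). Reads of the viral and of the endogenous Fos transcript cannot be told apart in these counts. The library that stood furthest apart was Gent replicate 2. The deviation of its log2 levels from the mean over libraries fell with gene length (Spearman's rho = -0.50 across genes, against -0.22 to 0.33 in the other 6 libraries). That rho was 0.12 to 0.33 in Gent+Fos OE, and 0.15 and -0.22 in Gent replicates 1 and 3. Log2 fold changes thus rose with gene length (rho = 0.38), and less so without Gent replicate 2 (rho = 0.19). Where leaving Gent replicate 2 out turned the sign of a named gene or moved its value by over 1.5 times, the value without that library is given too. Utricle markers were present, with summed hair cell markers at 593 to 881 CPM and summed supporting cell markers at 1538 to 2676 CPM over all libraries.

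The stretches just before the transcription start are shown first for 5 of the genes, because they hold the AP-1 element for which several of the genes are known. Since genes were chosen partly as known AP-1 targets, its presence restates that choice and is given as a description. The sequences are the 100 bases before each start in RefSeq on GRCm38.p6, the assembly also called mm10, printed 5′ to 3′ on the strand of the gene, with the AP-1 element in capitals.

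Mmp13 (chr9:7272414-7272513, plus strand): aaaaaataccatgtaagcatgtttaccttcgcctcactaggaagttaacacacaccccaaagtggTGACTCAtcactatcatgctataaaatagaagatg

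Mmp3 (chr9:7445722-7445821, plus strand): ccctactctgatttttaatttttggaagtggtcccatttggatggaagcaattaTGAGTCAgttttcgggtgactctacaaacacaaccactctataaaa

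Mmp10 (chr9:7502242-7502341, plus strand): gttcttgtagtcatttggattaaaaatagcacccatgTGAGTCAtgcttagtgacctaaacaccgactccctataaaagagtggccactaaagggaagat

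Mmp12, second start (chr9:7347274-7347373, plus strand): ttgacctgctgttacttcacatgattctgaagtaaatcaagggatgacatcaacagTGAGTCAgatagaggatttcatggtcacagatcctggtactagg

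Mmp14 (chr14:54431498-54431597, plus strand): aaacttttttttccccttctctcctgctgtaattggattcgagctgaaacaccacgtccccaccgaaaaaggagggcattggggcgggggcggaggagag

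Mmp14 is shown as a gene without the element. Promoter windows of 300 bases, from 250 before to 50 after a start, were matched by symbol for 8 of the 10 genes, and Mmp2 and Mmp9 had none in the table. The element lay in the windows of 4 genes, first base at position -35 for Mmp13, -46 for Mmp3, -63 for Mmp10 and -44 for the second start of Mmp12, counted from the base just before the start as -1. It lay in no window of Mmp14, Timp1, Timp2, Timp3 or the first start of Mmp12. Of all 32851 windows in the table, 5.20% held the element on either strand, and 1.88% held it within the 100 bases before the start. The TATA box word TATAAA on the sense strand followed the element in Mmp13 at -16, in Mmp3 at -7 and in Mmp10 at -29. Of all windows, 3.799% held that word in the 100 bases before the start. It was matched by letters alone, so whether it serves as a TATA box at these distances was not tested. A match of letters is a description and does not show that a factor binds there.

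**Figure D1:**
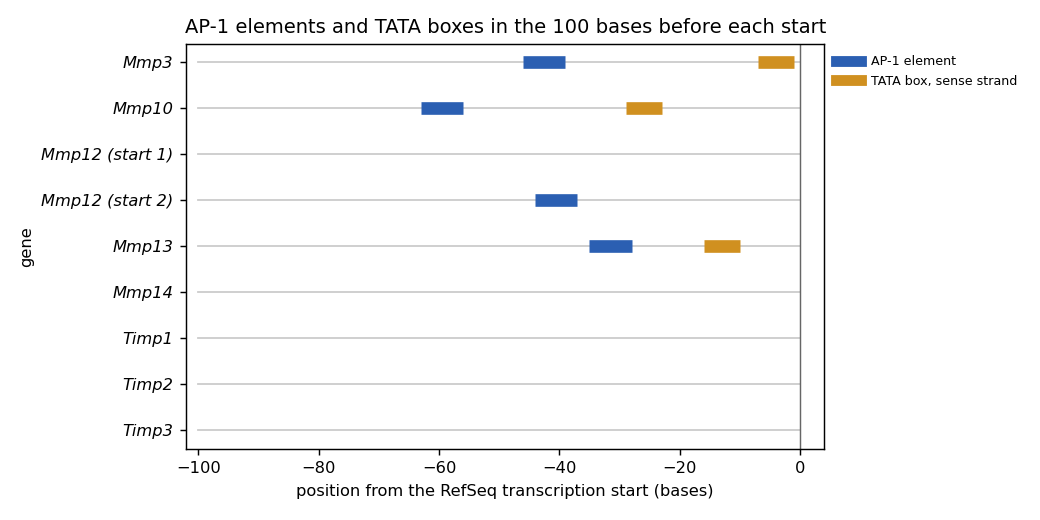
Positions of the AP-1 element (blue) and of the sense-strand word TATAAA, labelled TATA box (orange), in the 100 bases before each RefSeq start. The start is at 0 on the x axis in bases, with 1 row for each start of the 8 genes with a window. The 4 AP-1 elements lie between -63 and -29, and the rows of Mmp14, Timp1, Timp2, Timp3 and the first Mmp12 start hold neither feature.

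Over the 10 genes, log2 fold changes ran from -1.99 (Mmp13) to 0.58 (Mmp10, with an SE of 0.77), and those of Mmp2, Mmp14, Timp2 and Timp3 lay between -0.21 and 0.22. 1 of the 10 genes, Mmp13, was called lower in Gent+Fos OE (adjusted p under 0.01 with a log2 fold change beyond 0.25 in size), where 0.28% of the tested genes were called lower and 0.134% higher. At an adjusted p under 0.05, Mmp3 joined it, against 1.19% of tested genes lower and 0.665% higher. With DESeq2, the tool named by the study's methods, Mmp13, Mmp3 and Mmp9 were called lower, against 1.6% of genes lower and 1.31% higher. The 4 and 3 libraries did not overlap for 3 genes with lower values (Mmp9, Mmp3 and Mmp13) and 1 with higher values (Timp2), against 12.2% of tested genes lower and 11.3% higher. None of the 10 genes was called higher by edgeR or by DESeq2, and at an unadjusted p under 0.05 in edgeR 0 had higher and 4 lower values, beside 1901 higher and 2300 lower of the 17155 tested genes. In all, 7 of the 10 lay below 0, 6 of them proteases, beside 50.1% of tested genes. The median log2 fold change was -0.21 for the 7 proteases and 0.19 for the 3 inhibitors, beside -0.00 for all tested genes. Without Gent replicate 2 the medians of the proteases and inhibitors were -0.24 and -0.13, so that the inhibitors' median changed sign. Over the fits without any single library they ran from -0.35 to -0.15 and from -0.13 to 0.25.

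**Figure D2:**
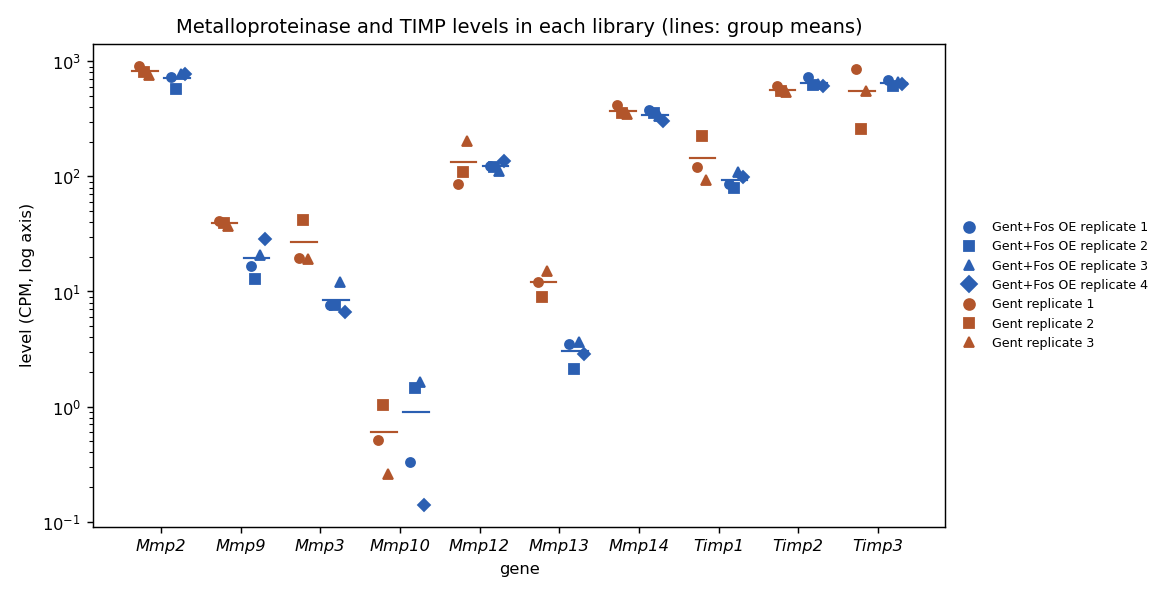
Level of each gene in each library in CPM on a log axis, Gent in brown and Gent+Fos OE in blue, with a marker shape for each replicate number and a line at each group mean. The groups are apart for Mmp9, Mmp3, Mmp13 and, by a small margin, Timp2, and Gent replicate 2 (brown square) lies away from the other Gent libraries for Mmp3, Timp1 and Timp3.

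Mmp13 (chr9:7272514-7283331) encodes collagenase 3, an interstitial collagenase, which cuts fibrillar collagens and above all type II collagen of cartilage. It was at 3.52, 2.11, 3.64 and 2.89 CPM in Gent+Fos OE and at 12.2, 8.91 and 15.2 CPM in Gent. Every Gent library was above every Gent+Fos OE library, with 8.91 CPM as the lowest Gent value and 3.64 CPM as the highest Gent+Fos OE value. The mean was 3.04 ± 0.70 CPM in Gent+Fos OE (SD, n = 4) and 12.1 ± 3.13 CPM in Gent (SD, n = 3), so Gent was 3.97 times as high. On the log2 scale the fold change was -1.99 (SE 0.24). Behind these levels stood 69 to 115 reads per Gent+Fos OE library and 278 to 525 reads per Gent library. The value stayed between -1.79 and -2.17 when any single library was left out, but the call held without Gent replicate 1 or 2 and was lost without any of the other 5 libraries.

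Mmp3 (chr9:7445822-7455975) encodes stromelysin 1, which cleaves proteoglycans, laminin and basement membrane collagen and activates other pro-MMPs. Its levels were 7.62, 7.56, 12.1 and 6.67 CPM in Gent+Fos OE and 19.7, 41.9 and 19.2 CPM in Gent. All Gent values lay above all Gent+Fos OE values, and Gent replicate 2 was the highest by far. Its log2 fold change was -1.66 (SE 0.30), and -1.20 without Gent replicate 2. Mmp10 (chr9:7502352-7510240), stromelysin 2, has much the same substrates as Mmp3. It was scarce, with 10, 47, 52 and 4 reads in the Gent+Fos OE libraries and 15, 32 and 9 in the Gent libraries. Its range in Gent+Fos OE, 0.14 to 1.65 CPM, spanned that of Gent (0.26 to 1.03 CPM). With a log2 fold change of 0.58 (SE 0.77), the difference was smaller than its error. Over the fits without any single library it ran from 0.10, without Gent+Fos OE replicate 3, to 1.21, without Gent replicate 2.

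Mmp9 (chr2:164940780-164955850) encodes gelatinase B, which cleaves denatured collagen and type IV collagen and is made by leukocytes, osteoclasts and activated epithelium. It was at 16.7, 13.0, 20.7 and 28.5 CPM in Gent+Fos OE and at 41.3, 39.0 and 36.8 CPM in Gent. The Gent libraries were close together and all higher, and Gent+Fos OE replicate 4 came nearest to them. Its log2 fold change was -0.99 (SE 0.22), with -1.22 to -0.83 over the fits without any single library. Mmp2 (chr8:92827291-92853420) encodes gelatinase A, a constitutive product of mesenchymal cells. Its levels were 737, 569.9, 773 and 777 CPM in Gent+Fos OE and 912, 805 and 768 CPM in Gent. The groups overlapped, and the log2 fold change was -0.21 (SE 0.14).

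Mmp14 (chr14:54431612-54445364) encodes a membrane-anchored MMP that cleaves collagen at the cell surface and, held together with Timp2, activates pro-MMP2. It was at 374, 358, 336 and 301 CPM in Gent+Fos OE and at 414, 357 and 347 CPM in Gent. The groups overlapped and the log2 fold change was -0.12 (SE 0.13). Mmp12 (chr9:7344381-7369499) encodes macrophage elastase. Its levels were 122, 120.2, 111 and 137 CPM in Gent+Fos OE and 85.2, 109 and 203 CPM in Gent. The Gent+Fos OE libraries lay within the Gent range, which was wide (CV 47.0%, against 8.92% in Gent+Fos OE). The log2 fold change was -0.11 (SE 0.25), and its sign depended on Gent replicate 3, since it was 0.33 without that library and -0.24 without Gent replicate 2. In the files' annotation 2.17% of the exonic bases of Mmp12 overlap Mmp1b, and reads on both genes were not counted.

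Timp1 (chrX:20870166-20874735) encodes a secreted, inducible inhibitor. It was at 86.7, 79.5, 109 and 99.0 CPM in Gent+Fos OE and at 120.5, 224 and 92.8 CPM in Gent. Gent replicate 2 was far above all the other libraries, which overlapped. The log2 fold change was -0.64 (SE 0.26), and -0.19 without Gent replicate 2. Timp2 (chr11:118301069-118355740, minus strand), which is made constitutively and takes part in the activation of pro-MMP2, was at 727, 622, 641 and 615 CPM in Gent+Fos OE and at 613, 554 and 539.7 CPM in Gent. The groups were apart by a margin of 615 against 613 CPM, and the log2 fold change was 0.19 (SE 0.12).

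Timp3 (chr10:86300372-86349506) encodes an inhibitor that stays bound to the matrix and also blocks ADAM proteases. Its levels were 682, 610.1, 667 and 635 CPM in Gent+Fos OE and 852, 259 and 556 CPM in Gent. The Gent+Fos OE libraries were tight (CV 4.96%) and the Gent libraries wide (CV 53.3%), with Gent replicate 2 at the foot. The log2 fold change was 0.22 (SE 0.30) and changed sign to -0.13 without Gent replicate 2. Timp3 has 8144 exonic bases and Timp1 888, the longest and shortest of the 10 genes, and Gent replicate 2 was lowest for the former and highest for the latter. A further limit is that 21.3% of the exonic bases of Timp3 overlap Syn3 on the other strand, where the unstranded counting left reads out.

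**Figure D3:**
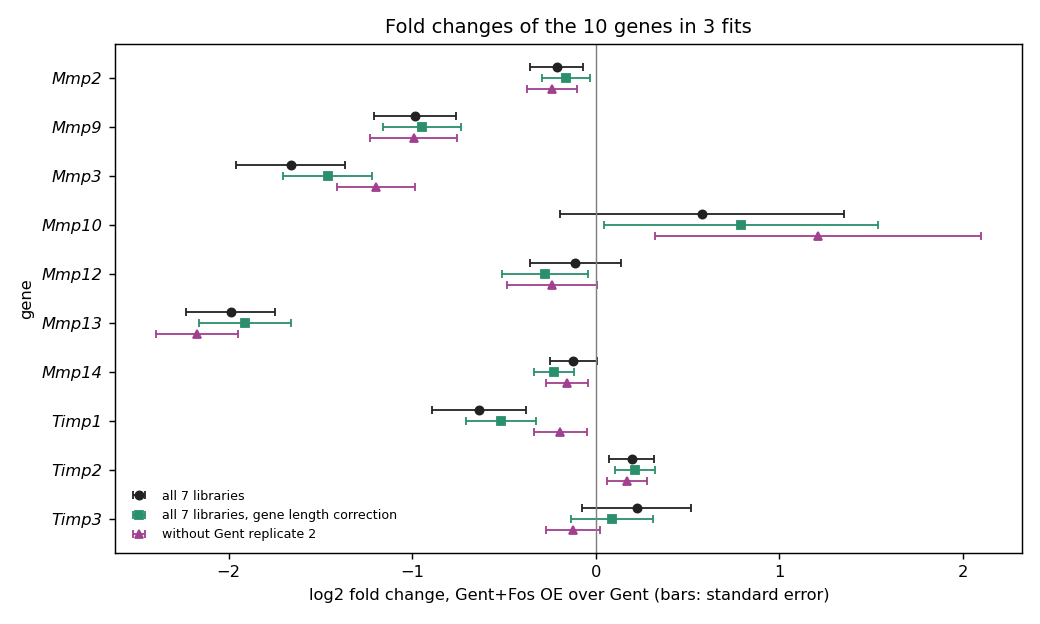
Log2 fold change of each gene, Gent+Fos OE over Gent, with its standard error in 3 fits: all 7 libraries, all 7 with a correction for gene length, and without Gent replicate 2. Mmp13, Mmp3 and Mmp9 lie below -0.8 in all 3 fits, while Timp1 comes closer to 0 and Timp3 crosses it without Gent replicate 2.

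Gene positions above are those of the files on mm10, and all but Timp2 lie on the plus strand. Levels were compared between genes as CPM per kilobase of exon. In Gent the order was Mmp2 (246 ± 22.2, SD, n = 3), Timp1 (164 ± 78.0), Timp2 (146 ± 10.02), Timp3 (68.3 ± 36.4), Mmp14 (62.5 ± 6.12), Mmp12 (18.3 ± 8.602), Mmp3 (14.9 ± 7.22), Mmp9 (11.03 ± 0.64), Mmp13 (4.52 ± 1.17) and Mmp10 (0.35 ± 0.23). Neighbours overlapped in their library ranges from Mmp2 to Timp2, between Timp3 and Mmp14, and from Mmp12 to Mmp9. The steps from Timp2 to Timp3, from Mmp14 to Mmp12, from Mmp9 to Mmp13 and from Mmp13 to Mmp10 were wider than the spread. Timp1 reached the range of Mmp2 only in Gent replicate 2, at 252. In Gent+Fos OE the order was Mmp2 (212 ± 29.0, SD, n = 4), Timp2 (167 ± 13.3), Timp1 (105 ± 14.8), Timp3 (79.6 ± 3.95), Mmp14 (57.4 ± 5.35), Mmp12 (16.9 ± 1.51), Mmp9 (5.57 ± 1.88), Mmp3 (4.72 ± 1.37), Mmp13 (1.14 ± 0.26) and Mmp10 (0.52 ± 0.44). The places of Timp1 and Timp2, and of Mmp3 and Mmp9, were thus exchanged between the groups, each pair with overlapping ranges in Gent. Mmp2 and Mmp14 together made up 83.9 to 91.1% of the summed level of the 7 proteases in every library, so that Mmp13, Mmp3 and Mmp9 were a minor share of the protease total. The summed level of the 3 inhibitors was 1.11 to 1.27 times that of the 7 proteases with Fos overexpression and 0.91 to 1.21 times in Gent, and these ranges overlap.

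Mmp13, Mmp12, Mmp3 and Mmp10 lie in a cluster of MMP genes on chromosome 9 (mm10), which spans 427 kb with Mmp1b, Mmp8, Mmp27, Mmp20 and Mmp7. The 4 genes with the AP-1 element near the start had log2 fold changes of -1.99 (SE 0.24) for Mmp13, -1.66 (SE 0.30) for Mmp3, -0.11 (SE 0.25) for Mmp12 and 0.58 (SE 0.77) for Mmp10. The values of Mmp12 and Mmp10 were smaller than their errors, so no direction can be read from them. The neighbours that could be tested, named here for their position, had values on both sides of 0. Mmp8, neutrophil collagenase, had a log2 fold change of -1.20 (SE 0.53), Mmp27 of -0.71 (SE 0.35) and Mmp7, matrilysin, of 1.03 (SE 0.46), none of them called by edgeR (adjusted p = 0.196, 0.234 and 0.201). The Mmp8 value rested on Gent replicate 3, at 13.4 CPM beside 3.97 and 2.18 CPM in the other Gent libraries and 1.93 to 4.49 CPM in Gent+Fos OE, and its log2 fold change was -0.11 (SE 0.40) without that library. The element lay also in the windows of Mmp1b and Mmp7 and in none of Mmp8, Mmp27 and Mmp20. Mmp1b had 0 counts in all 7 libraries, which allows up to 3 counts in each, or 0.087 to 0.107 CPM (counting error only), and Mmp20 had 0 to 10 counts.

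**Figure D4:**
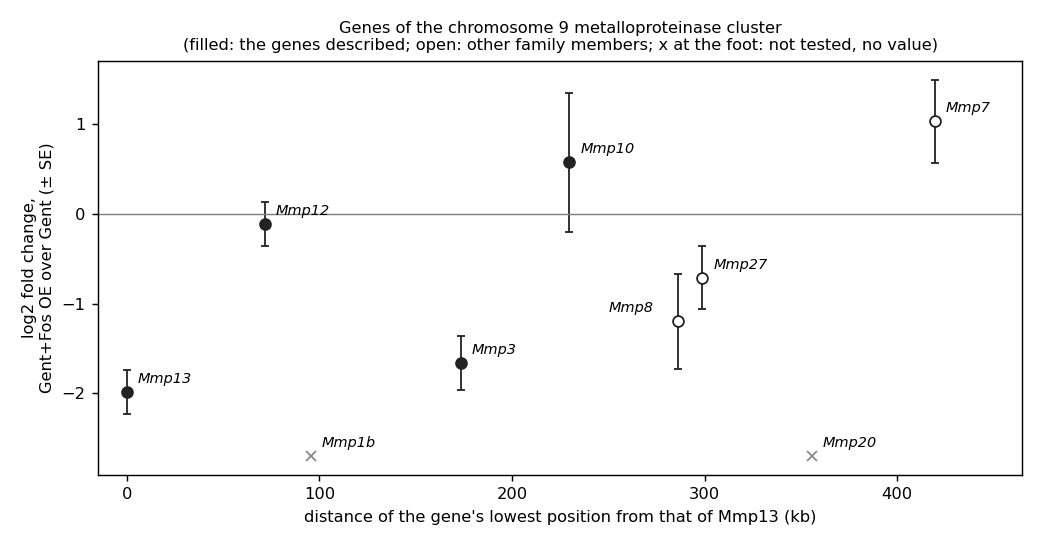
Log2 fold change, Gent+Fos OE over Gent, with its standard error for the MMP genes of the chromosome 9 cluster against distance from Mmp13 in kb. Mmp13 and Mmp3 are lowest, at -1.99 and -1.66, Mmp8 and Mmp27 follow at -1.20 (-0.11 without Gent replicate 3) and -0.71, Mmp12 lies at -0.11, and Mmp10 and Mmp7 lie above 0.

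The rest of the MMP family was tested in 12 of 15 genes found in the files, and Mmp1a was not analysed here. Neither edgeR nor DESeq2 called any of the 12, with 2 higher and 2 lower at an unadjusted p under 0.05 in edgeR, and the median log2 fold change was 0.06. The most abundant were Mmp15, Mmp11 and Mmp19. Mmp15, a membrane-anchored MMP, ran from 143 to 241 CPM in Gent+Fos OE against 97.7 to 138 CPM in Gent, with a log2 fold change of 0.63 (SE 0.20, edgeR adjusted p = 0.115). Mmp11, stromelysin 3, had a log2 fold change of -0.22 (SE 0.15) and Mmp19 of 0.10 (SE 0.18), or -0.05 and -0.04 without Gent replicate 2.

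The pathway around the 10 genes was followed in 10 hand-written lists holding 133 other genes, of which 125 were tested. Only Fos was called higher and only Il1b lower by edgeR, and the median log2 fold change was -0.01. Il1b, the interleukin-1 beta gene whose product induces stromelysin and collagenase genes in stromal cells, fell, from 5.07 to 7.60 CPM in Gent to 1.77 to 1.89 CPM in Gent+Fos OE. Its log2 fold change was -1.81 (SE 0.22, edgeR adjusted p = 0.00316), and the call was lost without any single Gent+Fos OE library or without Gent replicate 3.  At an adjusted p under 0.05, edgeR also called Tnf (log2 fold change -1.16, SE 0.21), Batf (-1.39, SE 0.28) and Col2a1 (-0.78, SE 0.17) lower and Col7a1 (1.15, SE 0.24) higher. These 4 were singled out after their values were seen.

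Among the 16 cytokine and growth factor genes known to induce MMPs, 9 lay below 0 and the median was -0.24, with Il1b called at the stricter limit and Tnf, tumour necrosis factor, at the looser one. At an unadjusted p under 0.05 in edgeR 2 of the 16 had higher and 8 lower values, and DESeq2 called 5 lower (Il1a, Il1b, Il6, Osm and Tnf). The most abundant of them, Egfr, Tnfrsf1a and Tnfrsf1b, which encode the EGF receptor and both TNF receptors, had log2 fold changes of 0.18 (SE 0.15), -0.28 (SE 0.12) and -0.42 (SE 0.16) and were not called. Without Gent replicate 2, Egfr was at 0.03 and Tnfrsf1a at -0.19. Of the 11 AP-1 genes, Fos rose and none was called lower by edgeR at the stricter limit, with 3 higher and 4 lower at an unadjusted p under 0.05 and 2 lower in DESeq2. The median over the AP-1 genes was -0.37, and -0.16 without Gent replicate 2. Its partner Jun had a log2 fold change of -0.03 (SE 0.11), with levels of 101 to 117 CPM over all libraries, and Fosl2 one of 0.60 (SE 0.22), which became -0.10 and 0.34 without Gent replicate 2. The 9 other AP-1 target genes, 4 of which stand also in another list, had a median of 0.19 (0.12 without Gent replicate 2) and none was called by edgeR or DESeq2 (3 higher and 1 lower at an unadjusted p under 0.05 in edgeR). Spp1, Hmox1 and Ezr, their most abundant, had log2 fold changes of -0.33 (SE 0.12), -0.37 (SE 0.20) and 0.13 (SE 0.13).

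Other proteolytic systems were tested beside the MMPs. In plasminogen activation, the protease cascade upstream of several pro-MMPs, 8 of 10 genes lay above 0 with a median of 0.19. Serpine2, Plat and Anxa2, the most abundant, lay between -0.01 and 0.11, and at -0.03, 0.0086 and 0.31 without Gent replicate 2. All 10 genes of the cathepsin and cystatin C list lay below 0 with a median of -0.33, none called by edgeR (0 higher and 5 lower at an unadjusted p under 0.05) and 2 called lower by DESeq2. Summed macrophage markers were lower too (3085 to 4785 against 5059 to 7040 CPM), and their part in the cathepsin values was not tested. Ctsd, Ctsb and Ctsl, the lysosomal proteases at the top of that list, had log2 fold changes of -0.17 (SE 0.12), -0.21 (SE 0.12) and -0.01 (SE 0.11), and without Gent replicate 2 Ctsd was at -0.08 and Ctsl changed sign to 0.0070. The 9 ADAM and 17 ADAMTS genes had medians of 0.08 each, with 0 and 2 higher and 1 and 2 lower at an unadjusted p under 0.05 in edgeR and 1 ADAMTS gene called lower by DESeq2. Their most abundant members were Adam10 (0.30, SE 0.21), Adam9 (0.19, SE 0.18), Adam8 (0.19, SE 0.13), Adamts1 (0.27, SE 0.17), Adamts9 (-0.11, SE 0.23) and Adamts10 (0.12, SE 0.13). Without Gent replicate 2, Adam10 was at 0.04, Adam9 at -0.0096, Adamts1 at 0.09 and Adamts9 at -0.33.

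Among 13 other inhibitors and partners of MMPs, edgeR called none (2 higher and 3 lower at an unadjusted p under 0.05) and DESeq2 called A2m lower. Lrp1, the receptor that clears MMP and TIMP complexes, Lcn2, the lipocalin that binds MMP9, and Bsg, an inducer of MMPs, were the most abundant. Their log2 fold changes were 0.35 (SE 0.23), -1.09 (SE 0.42) and -0.26 (SE 0.17), and 0.12, -0.68 and -0.03 without Gent replicate 2. The 22 MMP substrates had a median of 0.03, with 12 above and 10 below 0, and that median, like those of the ADAM, ADAMTS and inhibitor lists, turned negative with the gene length correction (-0.17, -0.04, -0.10 and -0.05). Without Gent replicate 2 these medians were -0.04, -0.17, -0.07 and 0.0064. Col2a1, the type II collagen gene of cartilage and the substrate most associated with Mmp13, was at 1475 to 2114 CPM in Gent+Fos OE against 2477 to 3723 CPM in Gent, and Col7a1, of the anchoring fibrils under epithelia, was at 72.4 to 130.4 and 29.1 to 50.8 CPM. The abundant Col1a2, Fn1 and Col3a1 had log2 fold changes of -0.21 (SE 0.20), 0.50 (SE 0.25) and 0.27 (SE 0.17), and Col1a2 was at -0.33 without Gent replicate 2.

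Markers of the cell types that make MMPs were followed as well. In these bulk libraries fewer cells of a type and less RNA per cell cannot be told apart. The summed level of 12 macrophage markers ran from 3085 to 4785 CPM in Gent+Fos OE and from 5059 to 7040 CPM in Gent, without overlap. Of the 12, 10 lay below 0, with C1qb called lower at the looser limit by edgeR and 5 called lower by DESeq2. Without overlap between the groups, 8 of the 12 were lower and 1 was higher in Gent+Fos OE. None of the 12 was at 0 in every library. Mmp9 was broadly higher where this sum was higher. Per 1000 CPM of macrophage markers, a ratio added after the data were seen, Mmp9 ran from 4.11 to 5.98 in Gent+Fos OE and from 5.54 to 7.27 in Gent, which overlap. On the same scale Mmp3 overlapped too (1.39 to 3.51 and 3.25 to 5.95). Of the 10 genes 3 did not overlap on it, Mmp13 with lower values (0.60 to 1.05 and 1.27 to 2.998), and Mmp2 (162 to 224 and 114 to 152) and Timp2 (128 to 202 and 78.7 to 107) with higher values in Gent+Fos OE. Over all tested genes, 0.711% were lower and 45.8% higher without overlap on this scale. Within Gent the highest Mmp12 level, 203 CPM, stood in replicate 3, the Gent library with the lowest marker sum (5059 CPM). Within Gent+Fos OE the highest Mmp12 level, 137 CPM, stood in replicate 4, which had the highest marker sum of that group (4785 CPM). The part of macrophage content in these differences was not tested.

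**Figure D5:**
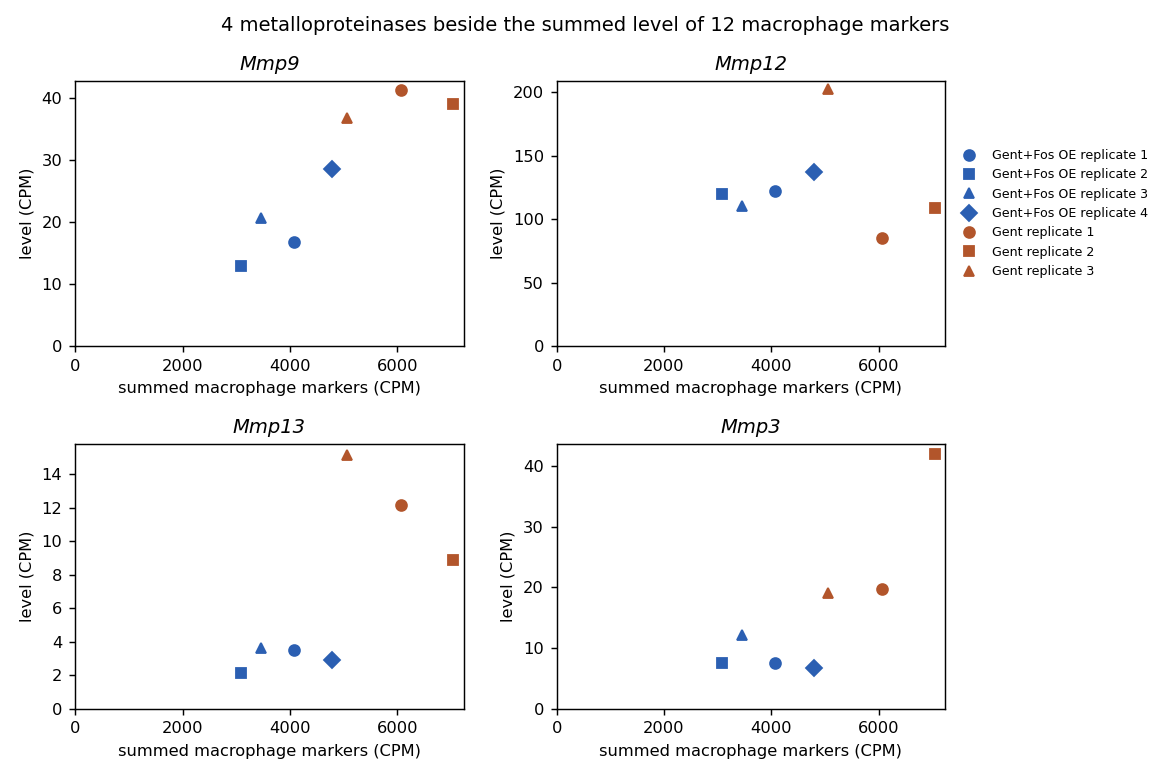
Level of Mmp9, Mmp12, Mmp13 and Mmp3 in CPM against the summed level of 12 macrophage markers in CPM, 1 point for each library. The Gent+Fos OE libraries (blue) lie left of the Gent libraries (brown), Mmp9 is broadly higher where the marker sum is higher, and Mmp12 is highest in Gent replicate 3 at a marker sum of 5059 CPM.

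Summed cartilage and bone markers, which include Col2a1, ran from 1933 to 2542 CPM in Gent+Fos OE and from 2987 to 4213 CPM in Gent, and pericyte and smooth muscle markers at 275 to 449 and 472 to 750.1 CPM, again without overlap. Melanocyte markers were also lower (31.2 to 36.8 and 67.5 to 112 CPM), and supporting cell markers higher, at 2328 to 2676 against 1538 to 2099 CPM. These sums weigh the abundant genes most, and the members of a list did not all move alike. Of the tested pericyte and smooth muscle markers, 4 lay below 0 and 2 above, with a median log2 fold change of -0.04. For cartilage and bone 7 lay below and 1 above (median -0.31). For supporting cells 6 lay above and 2 below, with 1 called in each direction at the looser limit. Mesenchyme markers overlapped at 6807 to 10257 and 8530 to 12295 CPM, as did endothelium (129 to 175 and 141 to 204 CPM), Schwann cell (310.1 to 409 and 299 to 481 CPM) and hair cell markers (688 to 881 and 593 to 744 CPM). Of 7 neutrophil markers 5 were under 1 CPM in every library, and their sum, 0.32 to 0.61 CPM in Gent+Fos OE, reached 0.48 to 8.56 CPM in Gent and was highest in Gent replicate 1. The part of these cell types in the MMP values was not tested.

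Genes with the profile most like that of Mmp13 were sought by the root mean square difference of centred log2 CPM over the 7 libraries, among 14837 genes of at least 1 CPM. The nearest were Phf11a (0.23), H2-Q6 (0.24), Ccl5 (0.27), Cd74 (0.29) and Apol9a (0.32), beside a median of 1.04 over all genes compared. Of these, Ccl5, a chemokine, ran from 11.6 to 17.7 CPM in Gent+Fos OE and from 44.2 to 48.8 CPM in Gent, and Cd74, the invariant chain of MHC class II, at 7.56 to 9.48 and 25.5 to 31.3 CPM. H2-Q6 belongs to a family of near-identical genes, so its counts are uncertain. For Mmp14 the nearest profiles were those of Ankrd13a (0.044), Nfkb1 (0.044), Noc2l (0.046), Disp1 (0.049) and Txndc11 (0.053), beside a median of 0.29. These are descriptions over 7 libraries that share a contrast.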

How the data were processed

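The authors deposited raw read counts per gene, which were not normalized. Per the file headers, featureCounts 2.0.6 counted paired-end reads on an mm10 annotation without strand, with the reads of a pair counted singly and multi-mapping reads left out. The submitters' processing notes list Trim Galore 0.6.10, HISAT2 2.2.1 and DESeq2 1.34.0, whereas the study's methods name mm39 and other versions. The methods state 3 replicates per condition while the labels list 4 and 3. All 7 libraries entered the fit. Symbols were given to 24639 of the 32285 genes in the count files, and 24915 genes had a count in any library. Rows that name no gene numbered 0.

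Genes kept by filterByExpr (17155) were TMM-normalized. The test was edgeR's quasi-likelihood F-test, and p-values were adjusted by Benjamini-Hochberg over all genes tested. Calls needed an adjusted p under 0.01 and a log2 fold change beyond 0.25 in size. The standard error is the fold change divided by the root of F. Used were edgeR 4.0.16, limma 3.58.1 and DESeq2 1.42.0 in R 4.3.3, and Python 3.11.15 with pandas 2.3.3. The tests were checked on simulated data. The 17 alternative fits covered DESeq2, limma-voom, normalization, filters, gene length (loess span 0.3), a replicate block and leaving out each library. Named genes of other lists are those called, otherwise the 3 most abundant and those at 0. The genes and lists were chosen with earlier results of these data known. Libraries of a group differed beyond the sampling noise of reads. Results of some listed genes are not reported here.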

Additional observations from a re-analysis of the deposited data

Results flagged for a closer look

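In the 4 Gent+Fos OE libraries, Fos reached 167 CPM in replicate 3 while the others lay at 149 to 151 CPM. The gap to the nearest library was 0.873 of the group's range, above Dixon's 95% critical value for 4 samples. It was the only flag among 11 values tested for such a gap (the 10 MMP and TIMP genes and Fos), and chance flags about 1 in 20 groups. The 3 Gent libraries are too few for this test.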

How the results depend on the processing

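Of 17155 tested genes, edgeR called 23 higher and 48 lower. These counts were 275 and 336 in DESeq2, 63 and 141 with no filter, 35 and 95 with a gene length correction, 114 and 205 at an adjusted p under 0.05, 2 to 45 and 3 to 93 without any single library, and 48 and 127 without Gent replicate 2 and with the length correction, a fit chosen after seeing the data. MMP and TIMP genes called lower, 1 in the fit reported, were 3, 2, 2 and 2 in the first 4 of these fits and 0 to 1 without any single library. Listed pathway genes called higher, 1 as reported, were 3 in DESeq2, with no filter and at the 0.05 limit, and 1 to 2 without any single library. Those called lower, 1 as reported, were 12, 3, 2 and 4 in the same 4 fits, 0 to 3 without any single library, and 4 in the added fit.

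Deviations of same-numbered libraries were weakly correlated (Pearson's r of 0.06, -0.04 and 0.03), and those of differently numbered ones ran from -0.06 to 0.04. The labels state no pairing, and these few correlations cannot decide whether libraries shared a batch. With the replicate block edgeR called 0 genes higher and 0 lower, with 1697 and 1703 at an unadjusted p under 0.05, 0 MMP or TIMP genes and 0 listed genes. In that fit Fos had a log2 fold change of 2.03 (adjusted p = 0.0296, edgeR). With the block and the length correction, 17 genes were called higher, Fos among them, and 31 lower, with Mmp13 and 2 listed genes among them. Over the fits without a single library, Mmp12 ran from -0.35 to 0.33, positive without Gent replicate 3, and Timp3 from -0.13, without Gent replicate 2, to 0.67. Timp3 was at -0.19 with the length correction added to the former. The cause of these shifts was not tested. The other 8 genes kept their direction in every fit that gave a value (16 of 17 for Mmp10, which lacked 10 counts in some libraries). Mmp10 had 4 to 52 reads per library.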
